A study of Mus musculus with 15 samples.

Results

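RGS proteins end signals from G protein coupled receptors, and 9 RGS genes were followed in mouse B cells before and after culture with the histone demethylase inhibitor GSK-J4. The 9 were Rgs1, Rgs2, Rgs3, Rgs10, Rgs13, Rgs14, Rgs16, Rgs18 and Rgs19, taken by their symbols from a table of 21761 genes. All 9 had a value in all 15 libraries' columns and all 9 passed the filter on low values, which kept 10866 genes with at least 1 RPKM (reads scaled to gene length and to library depth) in at least 3 libraries. Rgs3 passed it only through the naive libraries, so it had to differ between naive and cultured cells.

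The 5 groups held 3 libraries each, from splenic B cells of female wild-type C57BL/6J mice. The first 2 groups were cells magnetically enriched for CD138, a plasmablast marker, after 3 days with LPS, IL-2 and IL-5 and either 250 nM GSK-J4, an inhibitor of the H3K27 demethylases KDM6A and KDM6B, or its solvent DMSO. The next 2 were cells enriched for GL7, a marker of activated B cells, from the same kinds of culture with 250 nM GSK-J4 or with DMSO. The naive group was CD43- B cells with no stimulation and no drug, so it differs from the cultured groups in stimulation, time in culture and enrichment together. The labels give no age. Mice numbered 1 to 3 gave a library to each group, except that 1 CD138+ GSK-J4 column carried the number 4 and matched no single labelled sample; it is called replicate 4 here and has no mouse.

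Depth was 6241201 to 7712444 reads in CD138+ GSK-J4, 9676743 to 11636266 in CD138+ DMSO, 9174307 to 12213547 in GL7+ GSK-J4, 9806818 to 11519398 in GL7+ DMSO and 1318001 to 13190154 in naive libraries. Naive replicate 2, the shallowest library, stands apart. Counts of members called against naive cells, the values of Rgs1 and Rgs2 and the GL7+ value of Rgs10 are also given without it. The summed level of 5 plasmablast markers was 3111 to 3289 RPKM in CD138+ GSK-J4, 2849 to 3063 in CD138+ DMSO, 773 to 868 in GL7+ GSK-J4, 598 to 659 in GL7+ DMSO and 272 to 310 in naive libraries. The 5 B cell markers summed to 811 to 850, 1010 to 1065, 1195 to 1358, 1550 to 1623 and 3083 to 3670 RPKM in the same order of groups. Myeloid markers (9 of 10 listed are in the table) summed to 59.0 to 95.5 RPKM in naive libraries and to no more than 4.53 RPKM in any cultured library.

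G protein coupled receptors act through heterotrimeric G proteins, whose alpha subunit is active while it holds GTP. RGS proteins speed the hydrolysis of that GTP and so shorten the signal. In B cells the best known signals of this kind come from Gi-coupled chemokine receptors, which place cells in the follicle, the germinal centre or the bone marrow, and RGS proteins set how strongly cells migrate to them. Of the 9, Rgs1, Rgs2, Rgs3, Rgs13, Rgs16 and Rgs18 belong to the R4 subfamily, most of whose members hold little beyond the RGS domain, Rgs10 and Rgs14 to the R12 subfamily and Rgs19 to the RZ subfamily.

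RefSeq gave upstream windows for 6 of the 9 genes, 9 windows in all. Those of Rgs2, Rgs13, Rgs16 and Rgs10 are printed because these genes had 4 different patterns of level across the 5 groups. Each run is the 250 bases before the RefSeq start site, 5′ to 3′ on the gene's own strand, in build GRCm38.p6, which is not the mm9 build of the values. Capitals mark motif matches.
Rgs2, chr1:144004150-144004399, minus strand: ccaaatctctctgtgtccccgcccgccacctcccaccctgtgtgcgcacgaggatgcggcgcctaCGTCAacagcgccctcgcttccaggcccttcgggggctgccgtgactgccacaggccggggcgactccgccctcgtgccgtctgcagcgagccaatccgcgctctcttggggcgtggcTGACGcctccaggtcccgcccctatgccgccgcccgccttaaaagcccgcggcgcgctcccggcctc
Rgs13, chr1:144177373-144177622, minus strand: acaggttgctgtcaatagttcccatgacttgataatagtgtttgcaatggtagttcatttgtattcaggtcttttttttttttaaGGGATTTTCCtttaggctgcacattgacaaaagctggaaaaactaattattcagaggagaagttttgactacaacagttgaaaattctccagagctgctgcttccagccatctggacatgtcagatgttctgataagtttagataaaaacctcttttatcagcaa
Rgs16, chr1:153740103-153740352, plus strand: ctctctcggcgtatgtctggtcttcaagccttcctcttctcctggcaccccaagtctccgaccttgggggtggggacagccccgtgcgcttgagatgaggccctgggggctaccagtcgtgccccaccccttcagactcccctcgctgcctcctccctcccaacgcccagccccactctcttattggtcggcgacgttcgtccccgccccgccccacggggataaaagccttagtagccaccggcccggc
Rgs10, chr7:128418173-128418422, minus strand: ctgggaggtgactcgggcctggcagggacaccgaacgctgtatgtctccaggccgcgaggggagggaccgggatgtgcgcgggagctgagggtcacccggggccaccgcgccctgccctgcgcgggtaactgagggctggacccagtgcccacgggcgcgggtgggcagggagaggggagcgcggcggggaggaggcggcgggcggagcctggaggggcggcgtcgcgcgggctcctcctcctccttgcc
The Rgs2 window was 72.4% G and C and held 30 CpG dinucleotides, more than 94.1% of 32851 RefSeq windows of this length. The Rgs10 window held 27 and that of Rgs16 held 17, more than 91.4% and 76.5% of windows, whereas that of Rgs13, the next coding gene to Rgs2 on chromosome 1, was 36.0% G and C and held 0. The median window had 6.

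The motifs searched on both strands were chosen after the levels were known, namely AP-1 (TGANTCA), the CRE core (TGACG), STAT (TTCNNNGAA), FOXO (GTAAACA), the E-box (CACGTG) and NF-kB (by name). The Rgs2 window held 2 CRE cores, at -185 to -181 and at -67 to -63 from the start, and 17.8% of all windows hold at least 1. The Rgs13 window held 1 NF-kB match at -165 to -156, which 7.25% of windows have. The other 7 windows, those of Rgs16 and Rgs10 among them, held none of these motifs, and no match overlapped another. AP-1 is in 6.75%, STAT in 7.02%, FOXO in 3.17% and the E-box in 6.02% of windows. A match describes letters only.

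Together the 9 genes summed to 67.9 to 72.5 RPKM in CD138+ GSK-J4, 71.6 to 72.0 in CD138+ DMSO, 50.9 to 56.3 in GL7+ GSK-J4, 53.0 to 58.1 in GL7+ DMSO and 218 to 255 in naive libraries. Which gene held the largest share of that sum differed by cell state. Rgs10 made up a median of 67.8% of it in CD138+ GSK-J4 and 60.0% in CD138+ DMSO cells. Rgs19 held the largest median share in GL7+ cells, 33.4% with GSK-J4 and 35.8% with DMSO. With GSK-J4 Rgs10 came close, at a median of 30.4%, and in replicate 2 it lay above Rgs19 (34.1% against 32.7%). Rgs2, at 39.2%, and Rgs1, at 19.8%, were the first and second in naive cells. In bulk RNA, fewer cells of a type and less RNA per cell cannot be told apart.

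**Figure D1:**
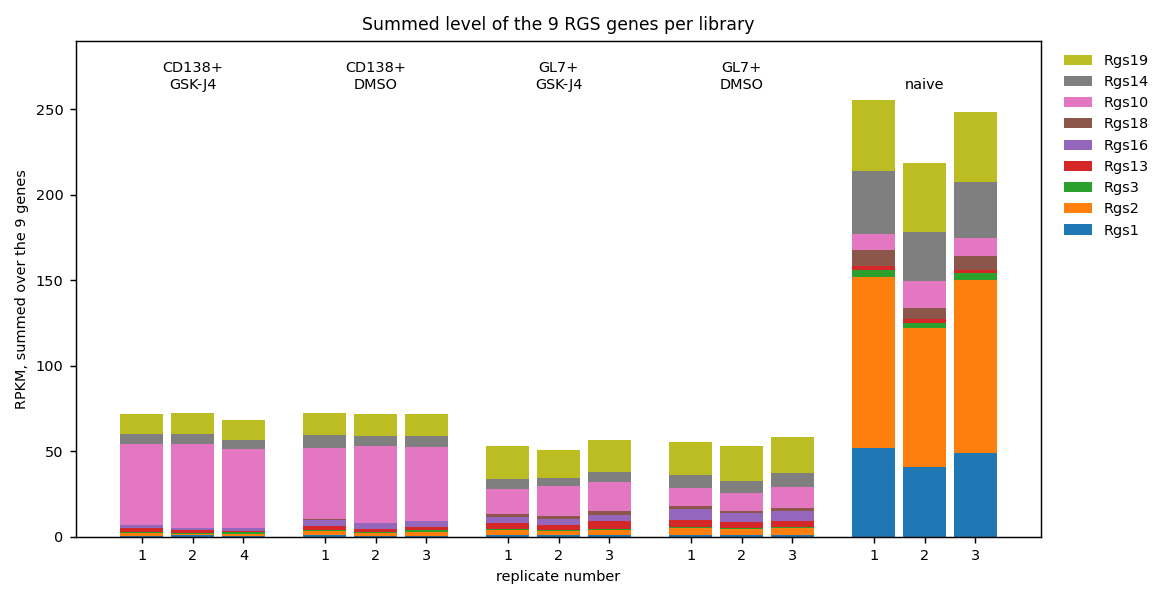
Level of the 9 RGS genes in each library, stacked (y axis, RPKM summed over the genes; x axis, replicate number within each group). The naive bars reach 218 to 255 RPKM, mostly Rgs2, Rgs1, Rgs19 and Rgs14, and no cultured bar passes 72.5 RPKM.

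The comparison of cultured with naive cells asks how these genes differed with stimulation, culture and enrichment together. In GL7+ DMSO cells 6 of the 9 fell relative to naive cells and 2 rose, and in CD138+ DMSO cells 6 fell and 2 rose. These counts stand against a table in which 81.7% and 83.4% of genes passed limma's test (adjusted p under 0.05) in either direction, 40.3% and 43.5% as lower and 41.3% and 39.9% as higher. The median log2 difference over the 9 was -1.54 and -1.59, and over all tested genes 0.01 and -0.05. Both comparisons share the naive libraries. Log2 differences were taken after adding 1 RPKM, except where voom or a pseudocount of 0.1 (0.1 RPKM added instead) is named. Changes of low genes therefore come out smaller than their ratio of means. Ranges did not overlap for 8 members in each comparison, as for 80.7% and 82.2% of all tested genes. Rgs3, which had to differ by the filter, is counted among the 6 that fell and the 8 without overlap. Its own log2 difference in GL7+ cells is the median given above.

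Rgs1, which in B cells limits migration towards chemokines, had the deepest fall in GL7+ cells. Its level was 0.863, 0.915 and 0.960 RPKM in GL7+ DMSO libraries and 1.03, 0.405 and 0.524 in CD138+ DMSO libraries, against 51.8, 40.9 and 49.1 in naive libraries. All naive libraries lay far above all cultured ones, and the means were 51.8-fold lower in GL7+ and 72.5-fold lower in CD138+ cells (log2 -4.65 and -4.88, SE 0.13 for both, limma adjusted p = 1.22e-13 and 4.21e-14). Rgs2, which prefers Gq as its substrate, was the most abundant of the 9 in naive cells. It stood at 4.27, 3.34 and 3.76 RPKM in GL7+ DMSO and at 2.20, 1.77 and 2.42 in CD138+ DMSO libraries, against 100.1, 80.9 and 100.7 in naive libraries. That was 24.8-fold lower in GL7+ and 44.1-fold lower in CD138+ cells (log2 -4.31 and -4.92, SE 0.13 for both, adjusted p = 4.41e-13 and 6.72e-14).

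Rgs18, known best as a brake on platelet activation, stood at 1.68, 0.940 and 1.86 RPKM in GL7+ DMSO and 0.334, 0.278 and 0.245 in CD138+ DMSO libraries, against 9.01, 6.53 and 7.93 in naive libraries. The groups did not overlap (log2 -1.83 and -2.77, adjusted p = 9.87e-09 and 6.35e-11). In CD138+ DMSO cells its level rested on 5 or 6 reads a library. Rgs3, which acts on Gi and Gq, averaged 0.638 ± 0.176 RPKM in GL7+ DMSO and 0.681 ± 0.0613 in CD138+ DMSO, against 3.79 ± 0.825 in naive cells (SD, n = 3 each), and lost its place among the tested genes when any 1 naive library was left out. The symbol covers a gene model of 8842 bases, and RPKM spreads reads from shorter transcripts over that length.

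Rgs14, a scaffold with an RGS domain that also binds inactive Gi through a separate motif, stood at 7.13, 6.75 and 8.27 RPKM in GL7+ DMSO and at 7.15, 5.98 and 6.56 in CD138+ DMSO libraries, against 37.2, 28.8 and 33.0 in naive libraries. It was 4.47-fold lower in GL7+ and 5.03-fold lower in CD138+ cells (log2 -2.02 and -2.16, adjusted p = 5.32e-11 and 1.75e-11). Rgs19, also known as GAIP, a regulator of Gi that pairs with the adaptor GIPC, had the smallest fall of the 6 in GL7+ cells, with 19.3, 20.8 and 20.8 RPKM in GL7+ DMSO and 12.8, 12.9 and 12.8 in CD138+ DMSO libraries, against 41.4, 40.3 and 40.6 in naive libraries. Its replicates were close together, and the levels were 2.01-fold and 3.17-fold lower (log2 -0.97 and -1.59, adjusted p = 9.70e-10 and 2.47e-12).

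Rgs16, a regulator of Gi signals that limits lymphocyte migration, went the other way. Its level was 6.25, 5.35 and 5.90 RPKM in GL7+ DMSO and 3.27, 3.06 and 3.20 in CD138+ DMSO libraries, against 0.195, 0 and 0.0690 in naive libraries. Naive values came from 6, 0 and 1 reads, while GL7+ DMSO libraries held 135 to 168. Summed reads per depth gave a ratio of 40.2 (95% counting interval 19.4 to 101) for GL7+ and of 21.9 (10.4 to 55.0) for CD138+ cells, and the log2 differences were 2.65 and 1.94 (SE 0.13 for both, adjusted p = 9.61e-11 and 2.91e-09). Rgs13, which is known from germinal centre B cells, rose in GL7+ DMSO cells, where it stood at 4.35, 3.53 and 3.57 RPKM, against 2.42, 2.29 and 1.56 in naive libraries (log2 0.65, adjusted p = 0.00384). Its naive values came from 53, 5 and 16 reads, and the GL7+ call held under all 23 alternatives (highest adjusted p = 0.0230). In CD138+ DMSO cells Rgs13 was at 2.50, 1.66 and 2.25 RPKM, which overlaps the naive range (log2 0.02, 95% interval -0.36 to 0.40, adjusted p = 0.912).

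Rgs10, a small RGS protein best known from microglia, rose in CD138+ but did not pass the test in GL7+ DMSO cells. It was at 10.8, 10.6 and 12.3 RPKM in GL7+ DMSO and at 42.0, 45.1 and 43.0 in CD138+ DMSO libraries, against 9.32, 15.7 and 10.6 in naive libraries. The CD138+ value was 3.66-fold that of naive cells (log2 1.82, SE 0.13, adjusted p = 4.02e-09). The GL7+ difference was -0.04 (95% interval -0.32 to 0.23, adjusted p = 0.765) and turned positive, without passing, with TMM scaling (0.14), voom on recovered reads (0.17), library weights (0.08) and without naive replicate 2 (0.16).

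**Figure D2:**
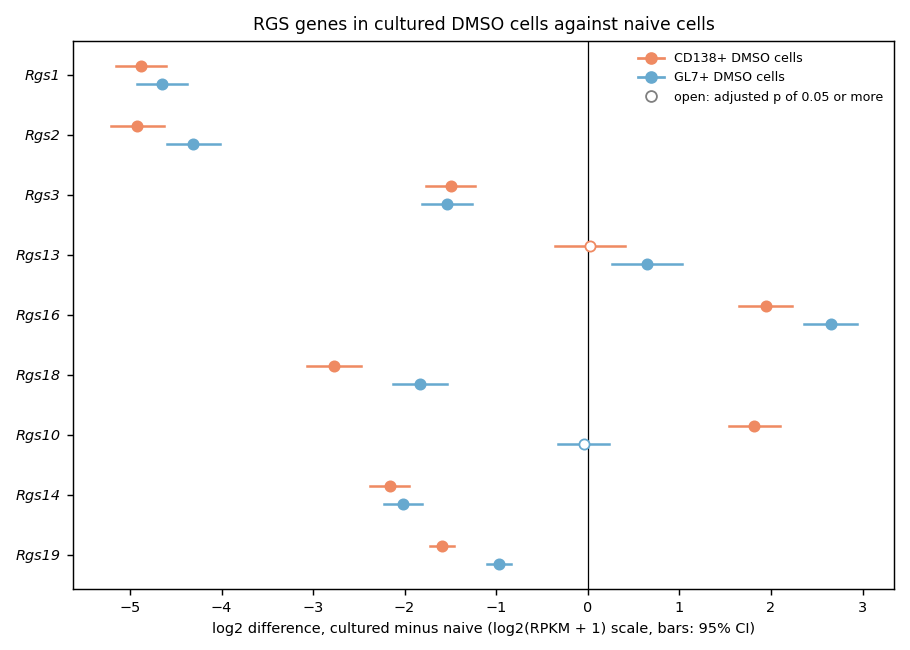
Difference of each RGS gene between cultured DMSO cells and naive cells (x axis, log2(RPKM + 1) scale; points, limma estimates; bars, 95% confidence intervals; open points, adjusted p of 0.05 or more). Rgs1 and Rgs2 lie below -4 in both fractions, and Rgs16 lies at 2.65 in GL7+ and 1.94 in CD138+ cells.

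Without naive replicate 2 the test called 7 members in each comparison, the loss being Rgs3, and the log2 differences of Rgs1 were -4.75 in GL7+ and -4.98 in CD138+ cells and those of Rgs2 -4.41 and -5.02. Markers of other cells differed in this comparison too, and many of them passed the filter through the naive libraries alone, so they are given as levels. Lyz2, a myeloid marker, averaged 0.320 RPKM in GL7+ DMSO and 1.89 in CD138+ DMSO, against 61.7 in naive cells, and Csf1r 0.0267 and 0.0493, against 8.66. Itgam, another myeloid marker, averaged 2.71 and 0.486, against 2.83, and S100a8 was at 0 in both DMSO groups. Platelet markers (8 of 8 listed are in the table) summed to 7.52 to 8.20 RPKM in GL7+ DMSO, 4.93 to 5.92 in CD138+ DMSO and 13.8 to 14.3 in naive libraries, most of it Itgb3. Ppbp was at 0 in both DMSO groups and at 1.63 RPKM in naive cells. T cell markers summed to 3.96 to 4.29 RPKM in GL7+ DMSO, 8.57 to 9.08 in CD138+ DMSO and 22.2 to 27.4 in naive libraries, and NK cell markers to 0.317 to 0.349, 0.216 to 0.367 and 5.67 to 6.25. Of the T cell markers, Cd28 averaged 0.853 in GL7+ DMSO and 7.56 in CD138+ DMSO, against 0.388 RPKM in naive cells. Lck averaged 3.18 and 0.953, against 15.7, and Cd3e was at 0 in both DMSO groups, against 0.786. Dendritic cell markers summed to 31.3 to 33.0 RPKM in GL7+ DMSO, 9.77 to 11.2 in CD138+ DMSO and 27.4 to 30.6 in naive libraries. Within that list Itgax averaged 0.0230 and 0.0817, against 14.2 in naive cells, and Clec9a was at 0 in both DMSO groups, against 4.61, while Flt3 was higher in both, at 31.6 and 9.78, against 6.35. Erythroid markers, mostly Hbb-b1, summed to 5.32 to 6.87 RPKM in GL7+ DMSO, 0.925 to 1.56 in CD138+ DMSO and 65.5 to 78.2 in naive libraries, and mast cell and basophil markers to 0.0870 to 0.158, 0.876 to 1.15 and 2.58 to 2.81. The part of these cells in the values of Rgs1, Rgs2, Rgs3, Rgs14, Rgs18 and Rgs19 was not tested.

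The comparison of the fractions asks which genes part CD138+ from GL7+ cells of the same kinds of culture. Under DMSO 1 member rose in CD138+ cells and 5 fell, where 58.7% of all tested genes passed, 21.8% as higher and 36.8% as lower. Under GSK-J4 1 rose and 6 fell, where 63.0% passed, 24.0% as higher and 38.9% as lower. The member that rose was Rgs10 in both. The 5 that fell under DMSO were Rgs2, Rgs13, Rgs16, Rgs18 and Rgs19, and under GSK-J4 Rgs1 joined them. The 3 libraries of each fraction did not overlap for 6 members under DMSO and 7 under GSK-J4, as for 71.3% and 70.1% of all genes.

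Rgs10 stood at 47.1, 49.2 and 46.1 RPKM in CD138+ GSK-J4 and at 14.6, 17.3 and 17.1 in GL7+ GSK-J4 libraries. With DMSO the CD138+ values given above lay 3.86-fold above those of GL7+ cells (log2 1.86, SE 0.13, adjusted p = 1.93e-08), and with GSK-J4 2.90-fold (1.49, 1.53e-07). Rgs18 had the widest gap in the opposite direction. It stood at 0.172, 0.0700 and 0.0790 RPKM in CD138+ GSK-J4, from 1 or 2 reads a library, against 1.76, 1.64 and 2.20 in GL7+ GSK-J4. Under DMSO its level was 5.24-fold lower in CD138+ than in GL7+ cells (log2 -0.94, adjusted p = 4.23e-05). With GSK-J4, 4 reads against 111 gave a ratio per depth of 0.0547 (95% counting interval 0.0146 to 0.144), at a log2 difference of -1.37 (adjusted p = 7.81e-07).

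Rgs19 was lower in CD138+ cells in both treatments, at 11.8, 12.8 and 11.5 RPKM in CD138+ GSK-J4 against 19.8, 16.7 and 18.8 in GL7+ GSK-J4 (log2 -0.57, adjusted p = 1.18e-06), and with a log2 difference of -0.62 under DMSO (adjusted p = 6.35e-07). Rgs16, Rgs2 and Rgs13 fell in CD138+ cells by a similar size under DMSO, with log2 differences of -0.71, -0.62 and -0.62 (adjusted p = 0.000389, 0.00122 and 0.00760). The same genes had -0.88, -0.59 and -0.88 under GSK-J4 (4.96e-05, 0.00147 and 0.000609). Rgs1 had a log2 difference of -0.51 under GSK-J4 (adjusted p = 0.00298). Under DMSO it had -0.23 (0.140) and passed only with library weights (0.0487) or without CD138+ DMSO replicate 1 (-0.39, 0.0110), the library in which it read 1.03 RPKM against 0.405 and 0.524 in the other two.

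Rgs14 and Rgs3 did not pass in either treatment. For Rgs14 the log2 differences were -0.15 under DMSO (95% interval -0.36 to 0.06) and 0.07 under GSK-J4 (-0.14 to 0.27), and for Rgs3 0.04 (-0.23 to 0.31) and -0.06 (-0.33 to 0.21). The means of Rgs14 in the 4 cultured groups ran in the order GL7+ DMSO, CD138+ DMSO, CD138+ GSK-J4 and GL7+ GSK-J4, and of the neighbours in that order CD138+ DMSO and CD138+ GSK-J4 alone did not overlap. Rgs16 was the member whose 5 groups did not overlap at any step, from GL7+ DMSO through GL7+ GSK-J4, CD138+ DMSO and CD138+ GSK-J4 down to naive.

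**Figure D3:**
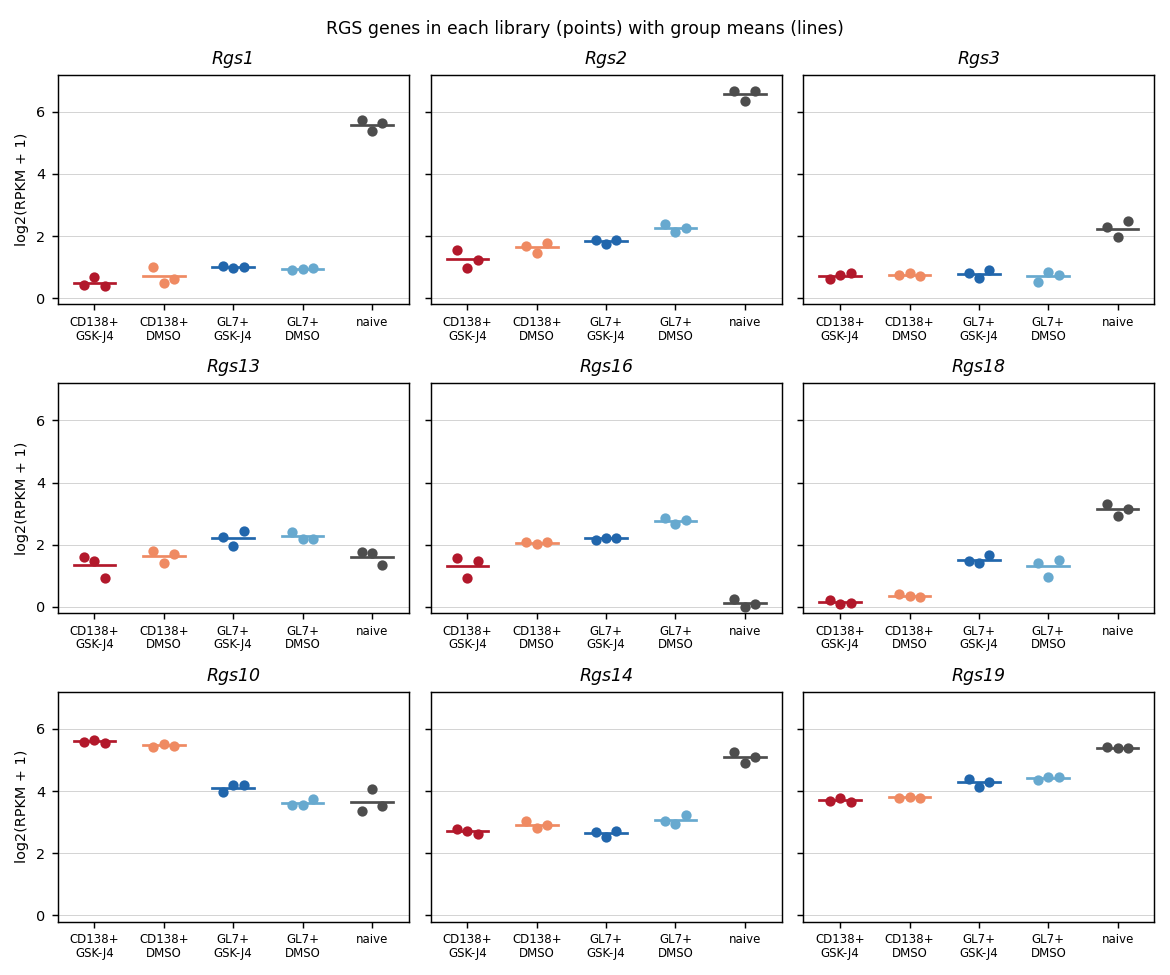
Level of each RGS gene in every library (points) with the mean of the 3 libraries of a group (lines); y axis, log2(RPKM + 1). Rgs1 and Rgs2 are high only in the naive group, Rgs10 is highest in the CD138+ groups, and Rgs16 is near 0 in the naive group.

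The central question of the series is what GSK-J4 did in each fraction. In CD138+ cells 1 member fell with GSK-J4 and none rose, against 13.2% of all tested genes that passed in either direction, 8.60% as lower and 4.61% as higher. Of the genes called there 34.9% were higher, and 46.8% after quantile normalization. In GL7+ cells 2 fell and 1 rose, against 13.5% of genes, 7.70% as lower and 5.78% as higher. The median over the 9 was -0.21 in CD138+ and -0.05 in GL7+ cells, and over all tested genes -0.03 and -0.01. The groups did not overlap for 5 members in each fraction, as for 36.8% and 40.6% of genes.

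Rgs16 fell with GSK-J4 in both fractions. In CD138+ cells it stood at 1.99, 0.889 and 1.76 RPKM with GSK-J4, against 3.27, 3.06 and 3.20 with DMSO, from 16 to 29 and 74 to 83 reads a library. Every GSK-J4 library lay below every DMSO library, and the means differed 2.05-fold (log2 -0.74, SE 0.13, adjusted p = 0.00264). In GL7+ cells the levels were 3.48, 3.64 and 3.65 RPKM with GSK-J4, against 6.25, 5.35 and 5.90 with DMSO, again without overlap and 1.62-fold apart (log2 -0.57, SE 0.13, adjusted p = 0.0131). The GL7+ call was lost with a pseudocount of 0.1 (adjusted p = 0.192) and without GL7+ DMSO replicate 1 (0.0571). The CD138+ call held under all 23 alternatives, with log2 differences of -1.13 to -0.54 and adjusted p of 0.000102 to 0.0441, the smallest difference being that without CD138+ GSK-J4 replicate 2, the lowest library.

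Rgs10 rose in GL7+ cells, to 14.6, 17.3 and 17.1 RPKM with GSK-J4, against 10.8, 10.6 and 12.3 with DMSO. The groups did not overlap and the means differed 1.46-fold (log2 0.50, SE 0.13, adjusted p = 0.0204). The estimate stayed between 0.46 and 0.58 over all 23 alternatives, but it missed the threshold without GL7+ GSK-J4 replicate 2 (adjusted p = 0.0806) or 3 (0.0745) and without GL7+ DMSO replicate 1 (0.0723) or 2 (0.0671). In CD138+ cells Rgs10 was at 47.1, 49.2 and 46.1 RPKM with GSK-J4 and at 42.0, 45.1 and 43.0 with DMSO, which do not overlap, but the 1.09-fold difference did not pass (log2 0.13, 95% interval -0.15 to 0.40, adjusted p = 0.581).

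Rgs14 fell in GL7+ cells, to 5.40, 4.79 and 5.58 RPKM with GSK-J4, against 7.13, 6.75 and 8.27 with DMSO. No GSK-J4 library reached the lowest DMSO library, and the means were 1.41-fold apart (log2 -0.42, SE 0.10, adjusted p = 0.0117). The call was lost without GL7+ GSK-J4 replicate 2 (adjusted p = 0.0594) and without GL7+ DMSO replicate 3 (0.0593). In CD138+ cells Rgs14 was at 5.85, 5.60 and 5.17 RPKM with GSK-J4 and at 7.15, 5.98 and 6.56 with DMSO (log2 -0.21, 95% interval -0.42 to 0.00, adjusted p = 0.186).

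Rgs2 was near the threshold in both fractions. In GL7+ cells it stood at 2.70, 2.39 and 2.67 RPKM with GSK-J4 and 4.27, 3.34 and 3.76 with DMSO, without overlap (log2 -0.41, SE 0.13, adjusted p = 0.0566). It passed with the mouse as a block (0.0114), with TMM scaling (0.0478), voom on recovered reads (0.0162), library weights (0.00975), a fit to the compared groups only (0.0156), and without CD138+ GSK-J4 replicate 1 (0.0292) or 2 (0.0334) or naive replicate 2 (0.0300), libraries that enter this comparison through the shared spread. In CD138+ cells it stood at 1.92, 0.948 and 1.37 RPKM with GSK-J4 and 2.20, 1.77 and 2.42 with DMSO, which overlap (log2 -0.39, SE 0.13, adjusted p = 0.0726). That value passed with library weights (-0.54, 0.00357), without CD138+ GSK-J4 replicate 1 (-0.54, 0.0180) and without naive replicate 2 (0.0395). With each of these settings, the count of members called in CD138+ cells was 2 instead of 1, and in GL7+ cells it ran between 1, without GL7+ GSK-J4 replicate 2 or GL7+ DMSO replicate 1, and 4. Calls over all tested genes moved too, from main-fit counts of 1435 in CD138+ and 1465 in GL7+ cells. In CD138+ cells they were 2688 with library weights, 2179 without naive replicate 2 and 1043 without CD138+ GSK-J4 replicate 1. In GL7+ cells they were 743 and 788 in the settings that called 1 member, and 1341 to 2968 in those that called 4.

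The other 5 members did not pass in either fraction. Rgs19 averaged 12.04 ± 0.635 RPKM with GSK-J4 and 12.9 ± 0.0418 with DMSO in CD138+ cells, and 18.4 ± 1.60 and 20.3 ± 0.891 in GL7+ cells (SD, n = 3 each; log2 -0.09 and -0.14, adjusted p = 0.377 and 0.157). Rgs13 averaged 1.57 ± 0.604 and 2.14 ± 0.430 in CD138+ and 3.67 ± 0.753 and 3.82 ± 0.461 in GL7+ cells with GSK-J4 and with DMSO (log2 -0.31 and -0.05, adjusted p = 0.299 and 0.889). Rgs1 averaged 0.418 ± 0.168 with GSK-J4 and 0.652 ± 0.330 with DMSO in CD138+ cells, on 4 to 9 and 9 to 19 reads a library, and 1.012 ± 0.0367 and 0.913 ± 0.0485 in GL7+ cells (log2 -0.21 and 0.07, adjusted p = 0.328 and 0.771). Rgs3 had log2 differences of -0.02 in CD138+ (adjusted p = 0.940) and 0.08 in GL7+ cells (0.732).

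For Rgs18 depth set the limit in CD138+ cells: 4 reads over the 3 GSK-J4 libraries and 17 over the 3 DMSO libraries gave a ratio per depth of 0.366, with a 95% counting interval from 0.0897 to 1.12. The groups did not overlap (0.0700 to 0.172 RPKM with GSK-J4 and 0.245 to 0.334 with DMSO), and the log2 difference was -0.22 (adjusted p = 0.350), or -0.92 with a pseudocount of 0.1, which passed (0.0281). In GL7+ cells Rgs18 was at 1.76, 1.64 and 2.20 RPKM with GSK-J4 and at 1.68, 0.940 and 1.86 with DMSO (log2 0.22, adjusted p = 0.341).

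**Figure D4:**
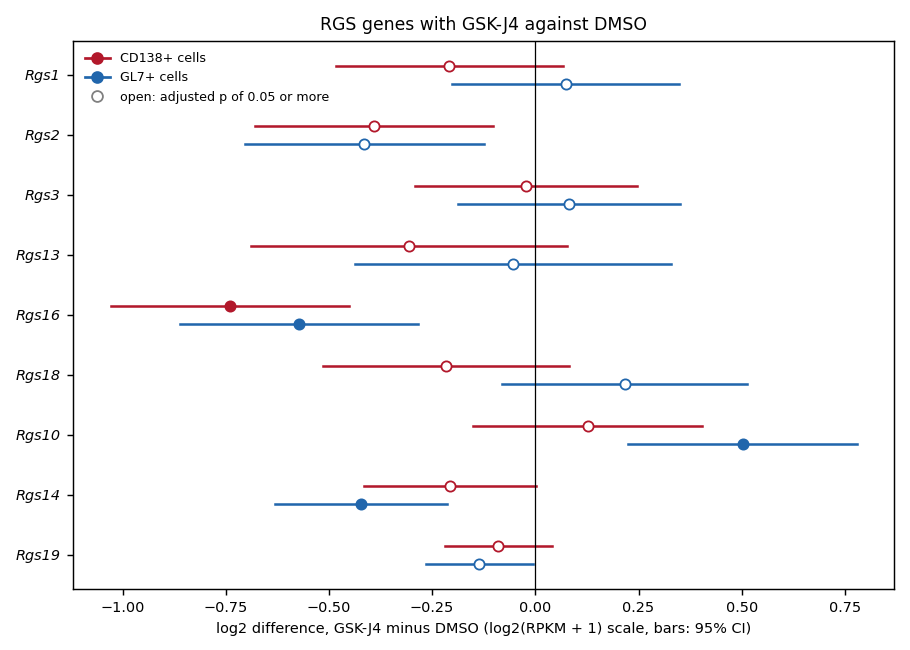
Difference of each RGS gene with GSK-J4 against DMSO in each fraction (x axis, log2(RPKM + 1) scale; points, limma estimates; bars, 95% confidence intervals; open points, adjusted p of 0.05 or more). The filled points are Rgs16 in both fractions, at -0.74 in CD138+ and -0.57 in GL7+ cells, and Rgs10 (0.50) and Rgs14 (-0.42) in GL7+ cells.

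Whether the response to GSK-J4 differed between CD138+ and GL7+ cells was tested as an interaction. Limma called 0 of the 9 members, against 0.966% of all tested genes, 0.322% as higher and 0.644% as lower, and voom also called 0 of the 9. In that limma fit 1 member, Rgs18, had an unadjusted p under 0.05, at a difference of effects (CD138+ minus GL7+) of -0.43 (95% interval -0.85 to -0.01, adjusted p = 0.358). Rgs10, called only in GL7+ cells, had -0.38 (-0.77 to 0.02, adjusted p = 0.396), and Rgs14, also called only there, 0.21 (-0.08 to 0.51, adjusted p = 0.548). For Rgs16 the difference was -0.17 (-0.58 to 0.24, adjusted p = 0.789). All 23 alternatives also called 0 of the 9.

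Plasmablast markers moved with GSK-J4 in GL7+ cells, where 5 of 5 rose, against 5.78% of all tested genes. Jchain averaged 353 ± 23.5 RPKM with GSK-J4 and 267 ± 20.9 with DMSO, and Sdc1, which encodes CD138, 2.88 ± 0.496 and 1.37 ± 0.152. In CD138+ cells limma called 0 of these 5, against 13.2% of all tested genes in either direction. B cell markers fell with GSK-J4, 4 of 5 in CD138+ and 2 of 5 in GL7+ cells, against 8.60% and 7.70% of all tested genes, with Pax5 at 20.3 ± 3.98 RPKM with GSK-J4 and 41.1 ± 3.31 with DMSO in CD138+ cells. Rgs10 is higher and Rgs16 and Rgs2 are lower in CD138+ than in GL7+ cells, as given above, and Rgs14 did not pass there. Rgs13, Rgs18 and Rgs19 are also lower in CD138+ cells. With GSK-J4 in GL7+ cells these last genes had log2 differences of -0.05, 0.22 and -0.14 and did not pass. The part of a shift between these cell states in the GL7+ values of Rgs10, Rgs16, Rgs14 and Rgs2 was not tested.

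Beyond the 9, 13 of 15 other listed RGS family genes and binding partners are in the table, and 2 passed the filter. Rgs11, a partner of the G protein subunit Gnb5, averaged 0.599 ± 0.0944 RPKM with GSK-J4 in GL7+ cells, against 1.77 ± 0.269 with DMSO, and 0.0983 RPKM in CD138+ GSK-J4, 0.356 in CD138+ DMSO and 0.178 in naive cells. It reached 1 RPKM in the GL7+ DMSO libraries alone and so passed the filter through the group where it is high, which favours a difference. Rgs12 averaged 0.682 ± 0.201 RPKM in GL7+ DMSO and 0.833 ± 0.122 in CD138+ DMSO, against 2.00 ± 0.433 in naive cells, and likewise would not have passed the filter without the naive libraries.

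The G protein coupled receptors of B cells, Gi-coupled and other, were a list of 26, of which 21 were tested. With GSK-J4, 2 rose and 5 fell in CD138+ cells, and 1 rose and 7 fell in GL7+ cells. Of all tested genes 4.61% rose and 8.60% fell in CD138+ cells, and 5.78% rose and 7.70% fell in GL7+ cells. Cxcr4, the receptor for the bone marrow chemokine CXCL12, rose in both, to 141 ± 1.20 RPKM against 101 ± 2.23 with DMSO in CD138+ cells and to 40.3 ± 1.34 against 29.3 ± 2.02 in GL7+ cells (log2 0.48 and 0.45, adjusted p = 0.000101 and 0.000287). Ccr7, a receptor that draws B cells to the T cell zone, fell to 4.37 ± 0.855 against 9.999 ± 2.72 RPKM in CD138+ cells, and S1pr4, a sphingosine phosphate receptor, fell to 11.3 ± 0.980 against 19.1 ± 0.552 in GL7+ cells. Relative to naive cells 17 of the 21 were lower and 1 higher in GL7+ DMSO cells, and 17 lower and 3 higher in CD138+ DMSO cells, where 40.3% and 43.5% of all tested genes were lower and 41.3% and 39.9% higher. The counts of this and the following lists include genes that may have passed the filter through a single group, which favours a difference. S1pr1, which guides exit from lymphoid tissue, averaged 5.97 ± 0.587 in GL7+ DMSO and 5.37 ± 0.946 in CD138+ DMSO, against 134 ± 10.7 in naive cells.

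Of the G protein subunits 19 of 30 listed were tested. With GSK-J4, 2 rose and 1 fell in CD138+ cells, and 0 rose and 1 fell in GL7+ cells, against 13.2% and 13.5% of all tested genes called in either direction. Relative to naive cells 9 were higher and 8 lower in GL7+ DMSO, and 9 higher and 7 lower in CD138+ DMSO cells, where 81.7% and 83.4% of all tested genes were called. Gnaq, the alpha subunit that activates phospholipase C beta, rose to 18.7 ± 0.208 RPKM against 14.5 ± 0.706 in CD138+ cells (log2 0.35, adjusted p = 0.00771), and Gnas, the alpha subunit that activates adenylyl cyclase, fell to 55.7 ± 0.203 against 62.8 ± 0.572 in GL7+ cells (log2 -0.17, adjusted p = 0.0325). Summed over the 30, the level was 732 to 739 RPKM in CD138+ GSK-J4, 729 to 772 in CD138+ DMSO, 748 to 799 in GL7+ GSK-J4, 811 to 828 in GL7+ DMSO and 824 to 888 in naive libraries.

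Kinases and arrestins that switch off the receptors were a list of 7, all tested. None rose or fell by limma in CD138+ cells with GSK-J4, and in GL7+ cells Arrb1 fell (1.55 ± 0.161 RPKM against 2.16 ± 0.268, adjusted p = 0.0367). Of all tested genes 13.2% in CD138+ and 13.5% in GL7+ cells were called in either direction. Relative to naive cells 6 of 7 fell in each DMSO fraction, against 40.3% of all tested genes in GL7+ and 43.5% in CD138+ cells. Among them was Grk6, at 62.9 ± 1.27 in GL7+ DMSO and 47.8 ± 0.388 in CD138+ DMSO against 175 ± 11.1 RPKM in naive cells. Adrbk2 is another of the 6, at 0.0400 in GL7+ DMSO and 0.131 in CD138+ DMSO against 7.29 RPKM in naive cells. A gene that is tested through its naive level is favoured to fall. Of 12 other G protein regulators 3 fell with GSK-J4 in CD138+ and 2 in GL7+ cells and none rose, against 8.60% and 7.70% of all tested genes that fell. Gpsm3, which like Rgs14 holds motifs that bind inactive Gi, fell in both, to 7.26 ± 0.403 against 9.55 ± 1.51 RPKM in CD138+ and to 19.6 ± 2.08 against 25.8 ± 0.462 in GL7+ cells (adjusted p = 0.0269 and 0.0145).

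Effectors of Gi and Gq (14 tested of 18) had 0 higher and 4 lower in CD138+ and 1 higher and 4 lower in GL7+ cells with GSK-J4. Of all tested genes 8.60% and 7.70% were lower and 4.61% and 5.78% higher. Pik3cg, the catalytic subunit of the PI3 kinase that G protein beta and gamma subunits activate, rose in GL7+ cells to 13.4 ± 2.19 RPKM against 6.85 ± 0.559 (log2 0.87, adjusted p = 0.000388). Like Rgs10 it was higher in CD138+ than in GL7+ cells under DMSO, at 60.2 ± 2.65 against 6.85 ± 0.559 RPKM. Rasgrp2, which activates the integrin regulator Rap1, fell to 3.13 ± 0.163 against 5.92 ± 0.655 in CD138+ and to 15.4 ± 2.17 against 22.6 ± 2.01 RPKM in GL7+ cells (adjusted p = 0.000465 and 0.00500).

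Genes whose pattern was most like each member were taken by Pearson's r of log2(RPKM + 1) over the 15 libraries, among the 8670 genes whose highest group mean reached 5 RPKM. These values describe 5 groups of 3 libraries that share mice and cultures. The 3 nearest to Rgs1 were 4930523C07Rik (r = 0.9965), Rin3 and Gm6377, to Rgs2 Ets1 (0.996), Dnase1l3 and Per1, to Rgs3 Crebl2 (0.986), Lyz1 and Kbtbd2, to Rgs14 Adcy7 (0.994), Tmem55b and Slc38a9, and to Rgs18 Ino80 (0.993), Inpp5f and Gmip. Btg1 (0.996), Plekho1 and Nckap1l were nearest to Rgs19. The members without a peak in naive cells had other partners: Rnf185 (0.985), Rbm47 and Nceh1 for Rgs10, Trib3 (0.985), Wnt10b and Prdx2 for Rgs16, and Dus4l (0.938), Emc6 and Trappc3 for Rgs13. Trib3 averaged 3.26 RPKM in CD138+ GSK-J4, 8.76 in CD138+ DMSO, 8.49 in GL7+ GSK-J4, 15.2 in GL7+ DMSO and 0.468 in naive cells, the same order of groups as Rgs16 except that CD138+ DMSO and GL7+ GSK-J4 changed places.

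In the order of coding genes on the RefSeq assembly, Rgs2, Rgs13 and Rgs1 are consecutive on chromosome 1, followed by Rgs21, which was not analysed here, and Rgs18, while Rgs16 lies elsewhere on the same chromosome, next to Rgs8. Rgs1 and Rgs2 had an r of 0.990 over the 15 libraries, and Rgs13, which lies between them, had -0.15 with Rgs1 and -0.09 with Rgs2. Rgs1 and Rgs18 had 0.902. Rgs8, the neighbour of Rgs16, held at most 5 reads in any library. No member overlaps another gene of the table on that assembly.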

How the data were processed

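RNA-seq libraries were made from polyadenylated RNA of B cells from mouse spleen. Reads were aligned with TopHat2 to mm9, per the submitters' processing notes. The sources used here give no counting tool, annotation, strand setting or version. The authors deposited 1 table of RPKM values per gene and library, with gene lengths and no counts. Without stated strand, reads of a gene and of an antisense partner cannot be told apart.

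Low values times gene length were whole multiples of 1 read (100.0% within 0.1 read, up to 20 reads), which gave each library's depth, 1318001 to 13190154 reads. A level of 1 RPKM in a gene of median length stood on 3.56 reads in naive replicate 2 and on 35.7 in naive replicate 1. Counting intervals are 95%, exact, and cover counting error only.

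Differences were fitted with limma 3.58.1 in R 4.3.3, with a variance trend, on log2(RPKM + 1) for 10866 genes that reached 1 RPKM in 3 or more libraries. A single model held all 15 libraries and the 5 group means, and p-values were adjusted over all tested genes by Benjamini and Hochberg at 0.05. An adjusted p in the text is limma's. The code was tested on simulated data. Alternatives were a pseudocount of 0.1, no filter, the mouse as a block, TMM scaling, quantile normalization, voom on the recovered reads, library weights, the compared groups only, and leaving out each library.

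The labels give the same mouse number across groups, which pairs the libraries; deviations from group means had a median correlation of 0.071 within a mouse (26 pairs) and -0.032 between mice (52 pairs). The members and lists were chosen with earlier results of these data known. All 9 members are named in every comparison; of each list the text gives counts and names genes from the 4 with the smallest adjusted p in a comparison. Marker genes and other RGS genes are named beside the results they touch. Upstream windows are RefSeq's, in build GRCm38.p6, and were not joined to mm9 coordinates.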

Additional observations from a re-analysis of the deposited data

How the results depend on the processing

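Of the 1428 values of single members under the alternatives, 1380 kept their direction and their side of the threshold, 14 passed it and 8 lost it without a change of direction, and 26 changed direction, none of them a called value. The cause of these changes was not tested. The count of members called with GSK-J4 in CD138+ cells was 2 with a pseudocount of 0.1 and with library weights, and 1 to 2 with each library left out. In GL7+ cells it was 1 to 4 with each library left out. After quantile normalization Rgs3 had log2 differences of 0.1209 with GSK-J4 in CD138+ cells and 0.0294 between the fractions under GSK-J4, and Rgs13 had 0.0104 with GSK-J4 in GL7+ cells. The difference of the GSK-J4 effects of Rgs2 was -0.0719 with a pseudocount of 0.1, -0.1248 with voom and -0.1002 with library weights. Rgs10 in GL7+ DMSO against naive cells was 0.136 with TMM scaling, 0.1694 with voom and 0.0803 with library weights.

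With each library left out, log2 differences that changed sign ran as follows. With GSK-J4, Rgs3 ran from -0.063 to 0.0269 in CD138+ and from -0.0081 to 0.1564 in GL7+ cells, and Rgs13 from -0.1653 to 0.0703 in GL7+ cells. The difference of effects ran from -0.1234 to 0.1679 for Rgs2, from -0.2978 to 0.0334 for Rgs16 and from -0.0196 to 0.0985 for Rgs19. Between the fractions Rgs3 ran from -0.0473 to 0.105 under DMSO and from -0.1371 to 0.0032 under GSK-J4. Against naive cells Rgs10 ran from -0.186 to 0.1592 in GL7+ and Rgs13 from -0.1076 to 0.136 in CD138+ cells.

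With the mouse as a replicate block, Rgs2 with GSK-J4 in GL7+ cells passed (-0.4141, adjusted p = 0.0114), and no other call of a member changed. In CD138+ GSK-J4 cells replicate 4 has no mouse, so that fit in effect leaves it out. Genes called with GSK-J4 in CD138+ cells numbered 1435, but 927 with the block and 2688 with library weights, and in GL7+ cells 1465, but 2745 with voom and 2968 with library weights. Genes called in the interaction numbered 105, but 32 with the block, 504 with voom and 828 with library weights. TMM scaling moved the median of all genes by 0.179 in GL7+ and 0.211 in CD138+ cells against naive cells. Depth limits Rgs18 and Rgs1 in CD138+ cells and Rgs16 in naive cells, where libraries held few or no reads. It also limits Rgs13 in naive replicate 2, which held 5 of its reads.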
